A study of Mus musculus with 2 samples.

Results

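Mef2a, Mef2c, Mef2d, Six4 and Eya4, 5 transcriptional regulators of the skeletal muscle programme, were examined in single-cell transcriptomes of mouse muscle stem cells. They were taken by symbol from the 32285 features counted in both libraries, and all 5 were found. The QSC library held freshly sorted quiescent satellite cells (QSCs) from uninjured tibialis anterior (TA) muscle, and the ASC library held activated satellite cells (ASCs) sorted on day 1.5 after injury with cardiotoxin (CTX), a snake toxin that destroys muscle fibres. Both came from mice of genotype Pax7 CreERT2/+ ;Rosa26 mTmG/+, 8 weeks old. In these mice a tamoxifen-inducible Cre recombinase expressed from the Pax7 locus marks satellite cells by switching on a membrane fluorescent reporter. Each library pooled 5 mice. Group and library therefore cannot be told apart, no difference has a replicate check, and every interval given covers counting error only.

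The Mef2 proteins are MADS-box transcription factors that bind an A/T-rich element in many muscle promoters and act together with the myogenic bHLH factors Myod1 and Myog. Class IIa histone deacetylases hold them inactive, and calcium and stress kinases release them. Six4 belongs to the sine oculis homeodomain factors, which bind the MEF3 element, and Eya proteins, which do not bind DNA themselves, are their co-activators. Both families act on the promoter of Myog, the differentiation factor that commits myoblasts to fuse.

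The element of each family is seen most plainly in the Myog promoter, which is shown here with the promoters of Mef2a, Six4 and Mef2c because they carry a match to the element of a family described here. Each line runs 5′ to 3′ on the strand of the gene, from 250 bases before the annotated start to 50 bases from it, as in RefSeq on GRCm38.p6. Capitals mark the matches to the MEF2 consensus, to its A/T core (TA, then 4 bases each A or T, then TA) or to the MEF3 motif TCAGGTTTC, all searched on both strands.
Myog, chr1:134289754-134290053, plus strand: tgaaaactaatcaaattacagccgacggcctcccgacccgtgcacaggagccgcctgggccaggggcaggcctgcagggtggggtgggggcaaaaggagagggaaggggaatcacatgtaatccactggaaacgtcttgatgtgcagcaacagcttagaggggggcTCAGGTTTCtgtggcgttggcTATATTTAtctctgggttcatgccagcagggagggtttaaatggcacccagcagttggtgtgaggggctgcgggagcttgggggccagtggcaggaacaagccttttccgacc
Mef2a, chr7:67372809-67373108, minus strand: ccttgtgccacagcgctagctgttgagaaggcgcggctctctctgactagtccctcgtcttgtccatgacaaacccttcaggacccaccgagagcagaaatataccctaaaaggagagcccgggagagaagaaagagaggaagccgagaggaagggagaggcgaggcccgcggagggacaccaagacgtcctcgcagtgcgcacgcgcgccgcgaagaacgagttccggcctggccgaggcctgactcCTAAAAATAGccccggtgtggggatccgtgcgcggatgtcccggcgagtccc
Six4, chr12:73113196-73113495, minus strand: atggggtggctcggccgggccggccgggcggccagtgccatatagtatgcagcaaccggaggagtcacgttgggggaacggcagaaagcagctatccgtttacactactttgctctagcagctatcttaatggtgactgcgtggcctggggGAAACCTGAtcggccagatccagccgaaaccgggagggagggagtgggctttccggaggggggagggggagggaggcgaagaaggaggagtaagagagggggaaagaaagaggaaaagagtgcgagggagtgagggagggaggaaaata
Mef2c, chr13:83503784-83504083, plus strand: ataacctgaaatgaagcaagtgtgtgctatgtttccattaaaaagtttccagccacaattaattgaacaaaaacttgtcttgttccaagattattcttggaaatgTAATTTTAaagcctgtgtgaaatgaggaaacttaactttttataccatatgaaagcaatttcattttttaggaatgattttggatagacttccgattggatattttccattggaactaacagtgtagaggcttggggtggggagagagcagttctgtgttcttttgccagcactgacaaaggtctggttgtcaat

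Counted from 0 at the start, the Myog promoter held the MEF3 motif at -84 to -76 and an A/T core at -63 to -56, with E-boxes (CANNTG, the site of bHLH factors) from -138 and from -12. The window of Mef2a carried the full MEF2 consensus across its own start, at -2 to 7, and the A/T core lies inside that match. One window of Six4 carried the MEF3 motif on the opposite strand at -99 to -91, and one of Mef2c an A/T core at -145 to -138. The other windows of Six4 and Mef2c, and those of Mef2d and Eya4, held no match to a MEF2 or MEF3 motif. Among 32851 promoter windows of this length, 3.19% held the MEF2 consensus, 9.32% the A/T core, 0.429% the MEF3 motif and 72.3% an E-box. A match is a run of letters and not a measured binding site.

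**Figure D1:**
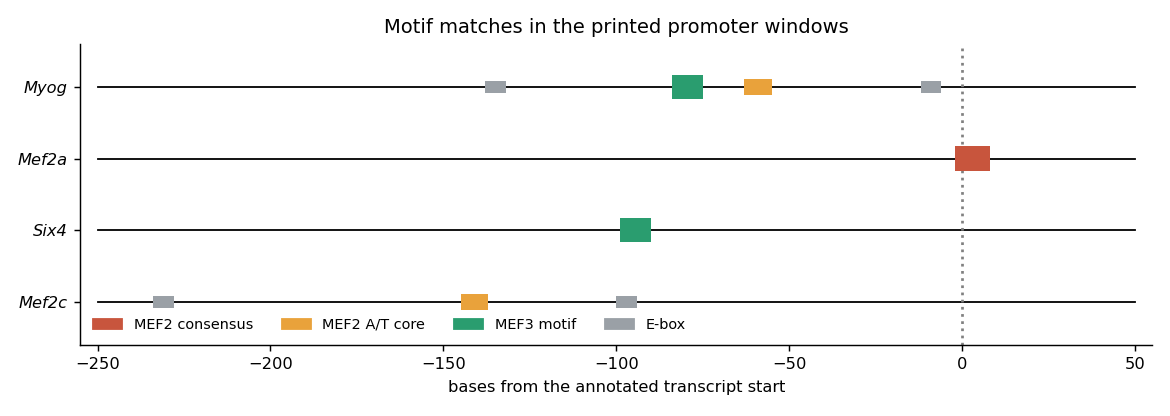
Matches to the MEF2 consensus, its A/T core, the MEF3 motif and the E-box (coloured boxes) in the promoter windows of Myog, Mef2a, Six4 and Mef2c, by bases from the annotated transcript start (dotted line). Myog alone of these 4 windows holds a MEF3 match and an A/T core together, 84 and 63 bases before its start.

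Barcodes with at least 500 genes and at most 10% mitochondrial UMIs (unique molecular identifiers, 1 per captured transcript) were kept, which left 516 of 766 in the QSC library and 1468 of 1650 in the ASC library. They held 1162091 and 8895815 UMIs, with medians of 2155 and 3502 per barcode, so that 3 counts correspond to 2.58 and 0.337 counts per 1000000 UMIs (CPM). Although both libraries are labelled muscle stem cells, 104 QSC barcodes (20.2%) and 956 ASC barcodes (65.1%) took at least 5% of their UMIs from 12 genes of fast fibres, most of them of the contractile apparatus with Ckm, Pvalb and Atp2a1 beside them, and are called fibre-high. Another 49 and 99 barcodes, with at least 1% of UMIs from immune, fibroblast, endothelial, Schwann cell or smooth muscle markers, are called non-muscle, of which 16 and 86 were led by immune genes. The label was weak for some of the others, since the 7 ASC barcodes led by fibroblast genes had 0 UMIs of Dcn and Pdgfra but Myod1 at 470 CPM and Pax7 at 131 CPM, and the 3 led by Schwann cell or smooth muscle genes had Myog at 3629 CPM. The remaining 363 and 413 are called mononuclear muscle. Of the 413 ASC barcodes, 86 were cycling (at least 0.3% of UMIs from 26 cell cycle genes), 77 were non-cycling with at least 0.05% of UMIs from Myog (Myog-high) and 250 were neither (Myog-low). None of the 5 genes was used for these classes. The satellite cell factor Pax7 was at 212 CPM in QSC mononuclear muscle and at 9.32 CPM in QSC fibre-high barcodes. In ASC it was at 29 and 2.25 CPM. The libraries shared 4 barcode sequences.

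Over all kept barcodes, the 5 genes differed little between the libraries, and the largest difference was in Mef2c. Mef2c was at 176 CPM in QSC (204 UMIs, 95% Poisson interval 152 to 201) and at 246 CPM in ASC (2184 UMIs, 235 to 256), a log2 ratio of 0.48 (exact interval 0.28 to 0.70). Its intervals in the libraries did not overlap. Mef2a was at 30.1 and 32.0 CPM (log2 ratio 0.09, -0.42 to 0.64), Mef2d at 24.1 and 17.8 CPM (-0.44, -1.03 to 0.20), Six4 at 9.47 and 7.53 CPM (-0.33, -1.26 to 0.74) and Eya4 at 6.88 and 6.97 CPM (0.02, -1.05 to 1.29). All 4 intervals include 0. None of the 5 genes reached a 2-fold difference on pooled counts, while of the 11189 features with at least 20 UMIs over both libraries, 16% were at least 2-fold higher in ASC and 23% at least 2-fold lower. The median log2 ratio of the 5730 genes with at least 20 UMIs in each library was -0.24. The 2-fold call depended on the barcodes and their weights, with Mef2c at 1.28 in barcodes of at least 1000 genes and, as a mean over barcodes of equal weight, Mef2c at 1.05 and Six4 at -1.17.

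Mef2c, on chr13:83504034-83667080 of the plus strand, differed widely between the classes of barcodes. Among fibre-high barcodes it was at 713 CPM in QSC (153 UMIs, 605 to 836) and at 597 CPM in ASC (1856 UMIs, 570 to 625). Mononuclear muscle held 34.9 CPM in QSC (29 UMIs, 23.4 to 50.2) and 45.9 CPM in ASC (239 UMIs, 40.3 to 52.1). Mef2c was thus 20.4-fold higher in fibre-high than in mononuclear muscle barcodes of the QSC library (log2 ratio 4.35, 3.77 to 4.98) and 13.0-fold higher in those of the ASC library (3.70, 3.51 to 3.90). In these comparisons 18.9% of 5254 features in QSC and 15.7% of 10280 in ASC were at least 2-fold higher in fibre-high barcodes. Mef2c and Mef2a in QSC, and Mef2c alone in ASC, were among the 5 genes past 2-fold in this direction. The median gene with at least 20 UMIs in each class was itself at 1.05 in QSC and -0.11 in ASC. Relative to it Mef2c was at 3.30 in QSC and 3.81 in ASC, which turns the order of the libraries, and Mef2a in QSC, at 0.56, was no longer past 2-fold.

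The excess of Mef2c in the ASC library was not present within fibre-high barcodes. There the log2 ratio of ASC over QSC was -0.26 (-0.49 to -0.01), against 0.39 (-0.17 to 1.003) in mononuclear muscle, where the 29 QSC UMIs leave a wide interval. The median gene with at least 20 UMIs in each library was itself at -0.18 in fibre-high barcodes and at -0.27 in mononuclear muscle. Relative to it Mef2c was at -0.08 in fibre-high barcodes and at 0.66 in mononuclear muscle. Fibre-high barcodes made up 65.1% of the kept barcodes in ASC and 20.2% in QSC. Of the UMIs, which the pooled ratio weighs, they held 3107508 of 8895815 in ASC and 214486 of 1162091 in QSC. Without them the log2 ratio of Mef2c was 0.07. The median mitochondrial share was 4.44% in QSC and 0.297% in ASC. Within QSC it was 4.91% in mononuclear muscle and 0.719% in fibre-high barcodes. With the limit of 1% used by the study in place of 10% the ratio over all barcodes turned to -0.50. At that limit QSC mononuclear muscle held 0 UMIs of Mef2c, so the mixture of classes changed as well, and its part in the turn was not tested. Barcode by barcode, Mef2c in fibre-high barcodes ran from 0 to 6126 CPM with a median of 507 CPM in QSC, and from 0 to 6046 CPM with a median of 483 CPM in ASC. The distributions of the libraries overlapped almost throughout, and in both the median mononuclear barcode had no Mef2c UMI. After each barcode was thinned to 1200 UMIs, Mef2c was seen in 48.9% of fibre-high barcodes in QSC (44 of 90, Clopper-Pearson interval 38.2 to 59.7) and 48.2% in ASC (419 of 869, 44.8 to 51.6), against 3.33% (1.73 to 5.75) and 8.60% (6.06 to 11.8) of mononuclear barcodes. Thinning was a single random draw at each depth, and the intervals leave out the variation of that draw. In the draw at 1200 UMIs the mononuclear shares lay apart, higher in ASC. At 2000 UMIs their intervals overlapped (5.56%, 2.99 to 9.31, and 10.0%, 7.21 to 13.4). Without thinning, these shares were 64.4% and 70.4% in fibre-high and 7.16% and 36.8% in mononuclear barcodes.

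**Figure D2:**
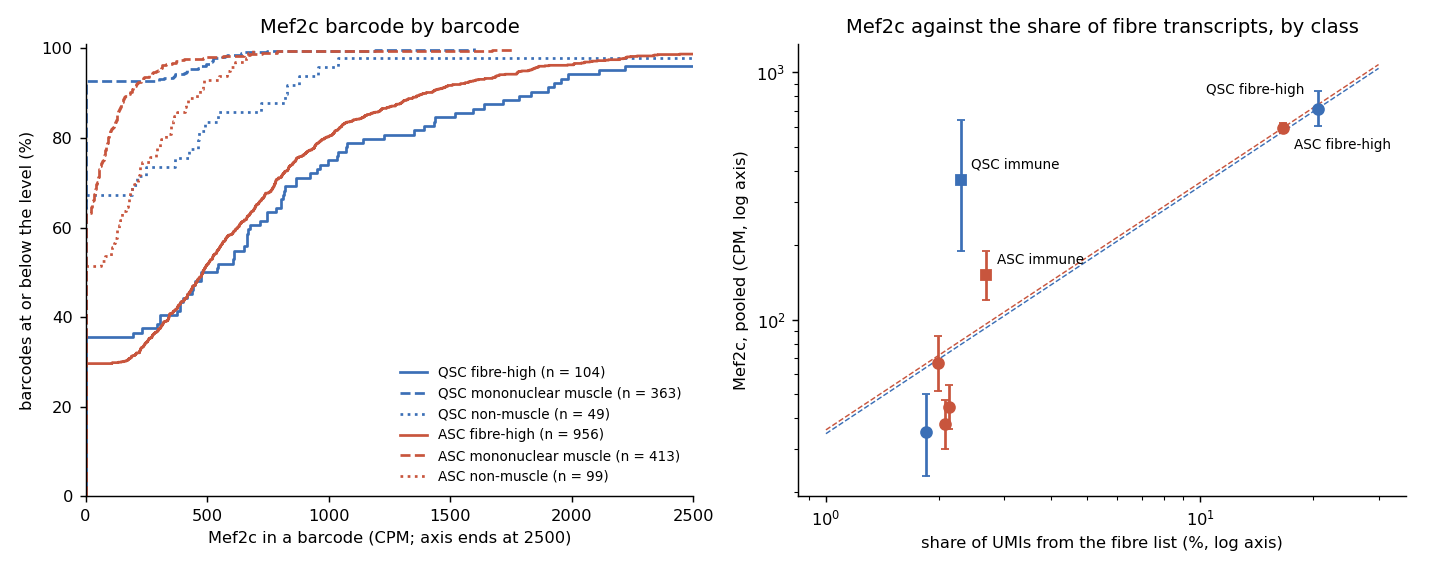
Left, the percentage of barcodes at or below each level of Mef2c (CPM), by library (colour) and class (line style), and right, pooled Mef2c (CPM, log axis, 95% Poisson intervals) against the share of UMIs from the fibre list (log axis) in the classes of each library, with dashed lines at the ratio of Mef2c to fibre-list UMIs in fibre-high barcodes. The unlabelled points, mononuclear muscle, lie on or under the lines, and the immune barcodes (squares) lie above them.

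Because transcripts of fibres were found at 1.85% of UMIs in QSC and 2.09% in ASC mononuclear barcodes, Mef2c was also set against the fibre list. Fibre-high barcodes held 3.46 Mef2c UMIs per 1000 fibre-list UMIs in QSC (2.93 to 4.05) and 3.58 in ASC (3.42 to 3.75). Mononuclear muscle held fewer, 1.89 (1.27 to 2.71) and 2.20 (1.93 to 2.497). The ratio was not fixed among fibre-high barcodes, since those of ASC rich in slow-fibre genes held 9.98 (6.73 to 14.2), and the part of stray fibre transcripts in the mononuclear level was not tested. Within ASC mononuclear muscle the ratio was 1.82 in cycling (1.44 to 2.27), 2.09 in Myog-low (1.69 to 2.54) and 3.35 in Myog-high barcodes (2.58 to 4.29), the last of which overlapped the fibre-high ratio. In CPM, Mef2c was at 66.9 in Myog-high (51.4 to 85.6) and 44.4 in Myog-low barcodes (36.1 to 54.1), a log2 ratio of 0.59 (0.11 to 1.06). The ratio was 0.51 (-0.03 to 1.05) with the cycling limit at 0.15% and 0.32 as a mean over barcodes. After thinning to 1200 UMIs, Mef2c was seen in 9.21% of Myog-high (3.78 to 18.1) and 9.35% of Myog-low barcodes (6.02 to 13.7), which are not distinguishable. Immune barcodes stood above the fibre-high ratio, with 16.04 Mef2c UMIs per 1000 fibre-list UMIs in QSC (12 UMIs, 8.29 to 28.0) and 5.65 in ASC (79 UMIs, 4.47 to 7.04).

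In ASC mononuclear muscle and fibre-high barcodes together, the level of Mef2c was higher at higher fibre shares, from 33.1 CPM where the fibre list took 1 to 2% of UMIs, through 46.5 CPM at 2 to 3%, 137 CPM at 3 to 5% and 412 CPM at 5 to 10%, to 601 CPM at 10 to 20% and 650 CPM at 20 to 30%. The intervals of neighbouring groups overlapped at the low end (26.7 to 40.4 and 37.4 to 57.2) and at the high end (569 to 635 and 593 to 711), and not between. The QSC library had few barcodes between 3 and 10%, and its level was not higher at the top, at 26.3 CPM (1 to 2%), 51.0 CPM (2 to 3%), 859 CPM (10 to 20%, 685 to 1065) and 621 CPM (20 to 30%, 484 to 785). Among features, 2.42% were at least 2-fold higher and 4.51% lower in barcodes high in Ankrd1 and Csrp3, 6.82% and 8.67% in those high in Mt3 and Trim63, and 13.7% and 7.87% in those rich in slow-fibre genes, and none of the 5 genes that had 20 UMIs was past 2-fold in any of the 3. Within ASC fibre-high barcodes Mef2c hardly differed between sub-states. It was at 590 CPM in the 425 barcodes high in the stretch-response genes Ankrd1 and Csrp3 and at 602 CPM in the other 531 (log2 ratio -0.03, -0.16 to 0.11). Barcodes high in Mt3 and Trim63, the latter a ubiquitin ligase of muscle atrophy, held 528 CPM against 605 CPM (-0.20, -0.44 to 0.03), and the 10 barcodes rich in slow-fibre genes 640 CPM against 597 CPM (0.10, -0.47 to 0.62).

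**Figure D3:**
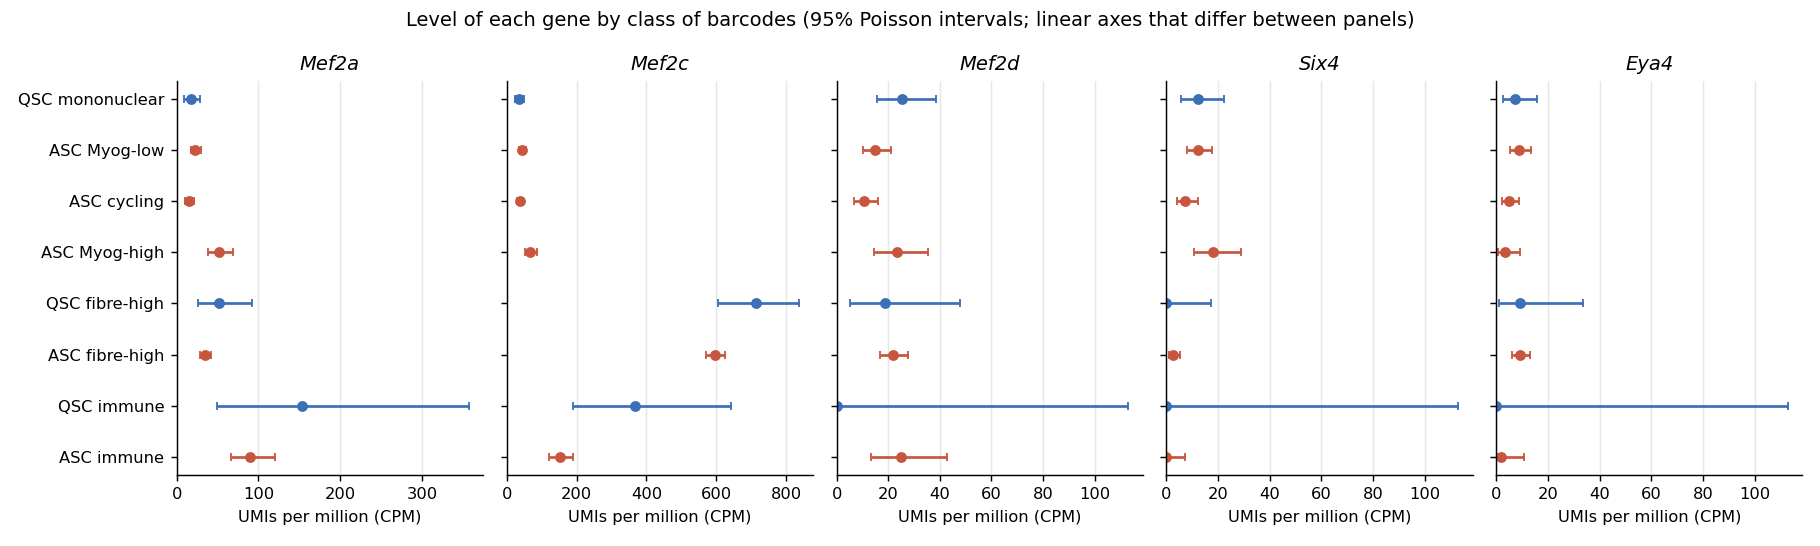
Level of each gene (CPM, linear axes that differ between panels) in mononuclear muscle, fibre-high and immune barcodes of the QSC library (blue) and the ASC library (red), with ASC mononuclear muscle split into Myog-low, cycling and Myog-high, and bars giving 95% Poisson intervals. Mef2c peaks in fibre-high barcodes (713 and 597 CPM), Mef2a of the classes drawn in immune barcodes (153 and 90.2 CPM), and Six4 has 0 UMIs in immune and QSC fibre-high barcodes.

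Mef2a, on chr7:67231163-67372858 of the minus strand, differed less than Mef2c between fibre-high and mononuclear muscle barcodes. Immune barcodes held more than both muscle classes, 153 CPM in QSC (5 UMIs, 49.7 to 357) and 90.2 CPM in ASC (47 UMIs, 66.3 to 120), and the 7 endothelial-led barcodes of QSC were at 341 CPM on 3 UMIs (70.2 to 995). Fibre-high barcodes were at 51.3 CPM in QSC (11 UMIs, 25.6 to 91.8) and 34.4 CPM in ASC (107 UMIs, 28.2 to 41.6), and mononuclear muscle at 16.9 CPM (14 UMIs, 9.22 to 28.3) and 24.97 CPM (130 UMIs, 20.9 to 29.7). The intervals of the immune, fibre-high and mononuclear classes overlapped in QSC for fibre-high with each of its neighbours, while in ASC the immune level lay clear of both others and those of fibre-high and mononuclear barcodes touched. As a ratio, fibre-high over mononuclear muscle was 1.60 on the log2 scale in QSC (0.32 to 2.85) and 0.46 in ASC (0.08 to 0.84). Non-muscle barcodes as a whole exceeded mononuclear muscle by 2.33 on the log2 scale in QSC (1.002 to 3.61) and by 1.72 in ASC (1.21 to 2.21), in comparisons where 14.7% and 15.8% of features were at least 2-fold higher. Mef2c exceeded it there by 2.42 (1.55 to 3.27) and 1.73 (1.37 to 2.09). Immune-led barcodes held 47 of the 48 Mef2a UMIs and 79 of the 89 Mef2c UMIs of the ASC non-muscle class. Between the libraries Mef2a had a log2 ratio of 0.57 in mononuclear muscle (-0.23 to 1.48) and -0.57 in fibre-high barcodes (-1.47 to 0.47), both within counting error of 0.

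Within ASC mononuclear muscle, Mef2a was higher in the non-cycling Myog-high barcodes than in the Myog-low and cycling ones. It was at 52.0 CPM in Myog-high (49 UMIs, 38.5 to 68.8), 22.7 CPM in Myog-low (50 UMIs, 16.8 to 29.9) and 15.1 CPM in cycling barcodes (31 UMIs, 10.2 to 21.4). The Myog-high level stood clear of the others, and those of Myog-low and cycling barcodes overlapped. None of the 5 genes was past 2-fold between cycling and Myog-low barcodes, where 6.16% of features were higher and 8.48% lower. The log2 ratio of Myog-high over Myog-low was 1.199 (0.60 to 1.80), past the 2-fold mark that 6.64% of 8100 features reached in this direction and 10.4% in the other. It was the only 1 of the 5 genes to be at least 2-fold higher at these limits. The fibre list took 1.99% of UMIs in Myog-high and 2.13% in Myog-low barcodes. Mef2a was at 2.61 UMIs per 1000 fibre-list UMIs in Myog-high and at 0.206 in fibre-high barcodes. The part of fibre transcripts in the difference of Mef2a was not tested. Immune, fibroblast, endothelial, Schwann and smooth muscle markers together took 0.423% of UMIs in Myog-high and 0.254% in Myog-low barcodes. The median immune share was lower in Myog-high barcodes, at 0.0130% against 0.0166%, as was the median fibroblast share, at 0.0568% against 0.193%. The immune gene Tyrobp was at 22.3 CPM in Myog-high and 63.5 CPM in Myog-low barcodes. The part of non-muscle transcripts in the difference of Mef2a was not tested. With the Myog limit at 0.025% or 0.1% of UMIs the log2 ratio was 1.205 or 0.99, and with the cycling limit at 0.15% or 0.6% it was 1.29 or 1.57. Which genes were past 2-fold thus moved with these choices, and Six4 reached 1.097 with the cycling limit at 0.15% and Mef2d 1.09 as a mean over barcodes. Median depth was 11292 UMIs in Myog-high and 5211 in Myog-low barcodes, and after thinning to 1200 UMIs Mef2a was seen in 6.58% (5 of 76, 2.17 to 14.7) and 4.07% of them (10 of 246, 1.97 to 7.35), which are not distinguishable at this depth. Unthinned, the shares were 40.3% and 15.6%.

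Mef2d, on chr3:88142372-88172086 of the plus strand, was lower in ASC than in QSC mononuclear muscle, at the edge of counting error. It was at 25.3 CPM in QSC (21 UMIs, 15.7 to 38.7) and 14.8 CPM in ASC (77 UMIs, 11.7 to 18.5), a log2 ratio of -0.77 (-1.49 to -0.003), when the median gene was at -0.27. In fibre-high barcodes it was at 18.6 CPM (4 UMIs, 5.08 to 47.7) and 21.9 CPM (68 UMIs, 17.0 to 27.7). The intervals of fibre-high, mononuclear and immune barcodes overlapped within each library, and the log2 ratio of fibre-high over mononuclear muscle in ASC was 0.56 (0.07 to 1.05). Myog-high barcodes held 23.4 CPM (14.6 to 35.4), Myog-low 15.0 CPM (10.3 to 21.0) and cycling 10.7 CPM (6.70 to 16.2), and the log2 ratio of the first over the second was 0.64 (-0.21 to 1.46).

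Six4, on chr12:73099609-73113456 of the minus strand, was lower in ASC fibre-high than in ASC mononuclear muscle barcodes. In mononuclear muscle it was at 12.05 CPM in QSC (10 UMIs, 5.78 to 22.2) and 11.3 CPM in ASC (59 UMIs, 8.63 to 14.6), a log2 ratio of -0.09 (-1.07 to 1.05). Fibre-high barcodes had 0 UMIs in QSC, where the floor of 3 counts is 13.99 CPM and a difference from mononuclear muscle was not detectable, and 2.57 CPM in ASC (8 UMIs, 1.11 to 5.07). In ASC the log2 ratio of fibre-high over mononuclear muscle was -2.14 (-3.42 to -1.07), on the side where 44.2% of features were at least 2-fold lower (47.6% in QSC). A 2-fold lower level in fibre-high barcodes was thus common. Non-muscle barcodes held 1 UMI in QSC, in a fibroblast-led barcode, and 0 of 99 ASC barcodes had one. With that 0 set at 3 counts the log2 ratio to mononuclear muscle is -1.14, while its exact 95% upper limit was -0.80, short of 2-fold, in a comparison where 27.8% of features were at least 2-fold lower. All 8 fibre-high UMIs of ASC fell in the 531 barcodes low in Ankrd1 and Csrp3 and none in the other 425, where up to 2.85 CPM would be compatible with a count of 0. Myog-high barcodes were at 18.1 CPM (17 UMIs, 10.5 to 28.9), Myog-low at 12.2 CPM (27 UMIs, 8.07 to 17.8) and cycling at 7.29 CPM (15 UMIs, 4.08 to 12.02), and these intervals overlapped.

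Eya4, on chr10:23102963-23350786 of the minus strand, was sparse in every class. In mononuclear muscle it was at 7.23 CPM in QSC (6 UMIs, 2.65 to 15.7) and 6.15 CPM in ASC (32 UMIs, 4.205 to 8.68), and in fibre-high barcodes at 9.32 CPM (2 UMIs, 1.13 to 33.7) and 9.01 CPM (28 UMIs, 5.99 to 13.0). These 4 intervals overlapped one another. Unlike Six4, its level in ASC fibre-high barcodes was not lower than in mononuclear muscle, with a log2 ratio of 0.55 (-0.23 to 1.33) whose interval lies apart from that of Six4. Myog-high barcodes held 3 UMIs (3.19 CPM) and Myog-low 19 (8.61 CPM), a log2 ratio of -1.44 (-3.83 to 0.33) that is past the 2-fold mark but within counting error.

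At 1200 UMIs per barcode the 4 sparser genes were seen in few barcodes. In QSC mononuclear muscle, Mef2a was seen in 0.556%, Mef2d in 1.94%, Six4 in 1.94% and Eya4 in 0.833% of 360 barcodes, and in ASC mononuclear muscle in 3.93%, 3.19%, 0.737% and 1.23% of 407. In fibre-high barcodes the shares were 5.56%, 2.22%, 0% and 1.11% of 90 in QSC and 4.03%, 2.30%, 0.460% and 1.04% of 869 in ASC. In this single random draw, only Mef2a in mononuclear muscle had intervals that did not overlap between libraries (0.0674 to 1.99 in QSC, 2.26 to 6.31 in ASC). They rested on 2 and 16 barcodes and leave out the variation of the draw, and at 2000 UMIs they overlapped (1.77 to 7.18 and 4.401 to 9.62). Unthinned, the shares of Mef2a in mononuclear muscle were 3.58% and 22.8%.

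**Figure D4:**
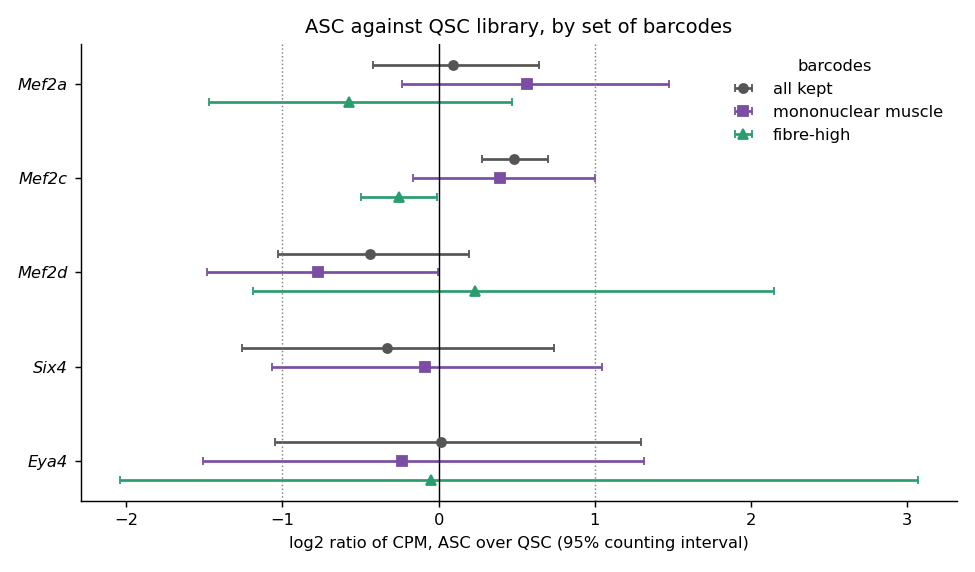
Log2 ratio of CPM in the ASC over the QSC library for each gene (points, with 95% counting intervals) over all kept, mononuclear muscle and fibre-high barcodes, where dotted lines mark a 2-fold difference and Six4 in fibre-high barcodes, at 0 UMIs in QSC, is left out. The ratio of Mef2c is 0.48 over all barcodes and -0.26 in fibre-high barcodes, and no point lies beyond the dotted lines.

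The relatives and partners of these genes were followed in lists, of which a gene was counted where the compared barcodes held at least 20 of its UMIs. In mononuclear muscle, where 18.9% of 9964 features were at least 2-fold higher in ASC and 22.6% at least 2-fold lower (median log2 ratio of all -0.06), the list of relatives of Six4, Eya4 and their Dach partners had 3 of 7 genes to count, none past 2-fold, with a median of -0.72. The co-activator Eya1 was at 28.9 CPM in QSC and 16.5 CPM in ASC (-0.81, -1.47 to -0.09). Six2 and Eya3 had ratios of -0.72 and -0.38, with intervals that include 0.

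Of a list of 6 Mef2 repressors and the family member Mef2b, which had 0 UMIs in QSC and 4 in ASC, 5 repressors were counted, with a median of 0.14. None was at least 2-fold higher and 2 were at least 2-fold lower in ASC, both class IIa deacetylases, Hdac4 (34.9 to 13.8 CPM, log2 ratio -1.34, -1.98 to -0.66) and Hdac5 (25.3 to 10.95 CPM, -1.21, -1.95 to -0.41). Cabin1, Hdac7 and Hdac3 had ratios of 0.14, 0.47 and 0.56. Over all kept barcodes Hdac4 was again lower (-1.26, -1.87 to -0.60), and Hdac5 was at -0.46 (-1.09 to 0.24). Of 17 kinases, phosphatases and co-activators that act on Mef2 proteins, 14 were counted, with a median of -0.57, 2 higher and 5 lower. Sik1, a kinase that phosphorylates class IIa deacetylases, had a log2 ratio of -4.30 (125 CPM in QSC, 6.34 CPM in ASC), and the acetyltransferases Kat2b and Ep300 had ratios of -2.17 and -1.75. The methyltransferase Carm1 (1.78) and the chromatin remodeller Smarca4 (1.50, 0.92 to 2.15) were the 2 that were higher, and p38 alpha (Mapk14), which acts on Mef2 proteins in differentiating myoblasts, was at -0.13 (-0.77 to 0.58).

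All 7 bHLH partners were counted, 2 higher and 2 lower, with a median of 0.57. Myog was at 34.9 CPM in QSC and 940 CPM in ASC (4.75, 4.23 to 5.33) and Myod1 at 147 and 415 CPM (1.50, 1.23 to 1.77), while Myf5, a determination factor, was at 523 and 64.7 CPM (-3.01, -3.22 to -2.81) and Tcf4 at 292 and 102 CPM (-1.52, -1.74 to -1.30). These 4 bHLH factors were the ones past 2-fold, while Tcf3, Myf6 and Tcf12, at 0.52, 0.57 and 0.96, were not. Of 16 Mef2 target genes 15 were counted, 4 higher and 3 lower, with a median of 0.35. Mymk, which drives myoblast fusion, was at 4.82 and 103 CPM (4.41, 3.05 to 6.29) and Klhl40 at 6.02 and 37.3 CPM (2.63, 1.38 to 4.27), while Myom2, of the sarcomere M-band, and the long non-coding RNA Meg3 had ratios of -3.03 and -2.01. Of 8 genes known as MEF3 targets, all counted with a median of 0.00, only Myog was past 2-fold. The other 7 are glycolytic and contractile genes of fast fibres, 5 of them in the fibre list that defined the classes.

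Over all kept barcodes 16% of features were at least 2-fold higher and 23% at least 2-fold lower in ASC. There the list of Six4, Eya4 and Dach relatives had 3 genes counted and none past 2-fold. The repressors had 5 with 0 higher and 2 lower, the activators 16 with 3 and 5, and the bHLH partners 7 with 3 and 2. The Mef2 targets had 16 with 7 and 1, and the MEF3 targets 8 with 3 and 0. The medians of the target lists were 0.70 and 0.32, against -0.10 over all features, and the larger fibre-high share of the ASC library moved with them, whose part was not tested. Within fibre-high barcodes, where 19% of features were at least 2-fold higher and 8.71% at least 2-fold lower in ASC, the Mef2 targets had 2 of 16 higher and 1 lower with a median of 0.08 (0.10 over all features). The 2 were Klhl40 (65.3 to 664 CPM, 3.35, 2.60 to 4.22) and Xirp1 (9.32 to 92.0 CPM, 3.30, 1.44 to 6.36), both of which build or maintain sarcomeres. Myf6, the bHLH factor of mature fibres, was there at 182 CPM in QSC and 463 CPM in ASC (1.35, 0.89 to 1.85), in barcodes where Mef2c was at -0.26.

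**Figure D5:**
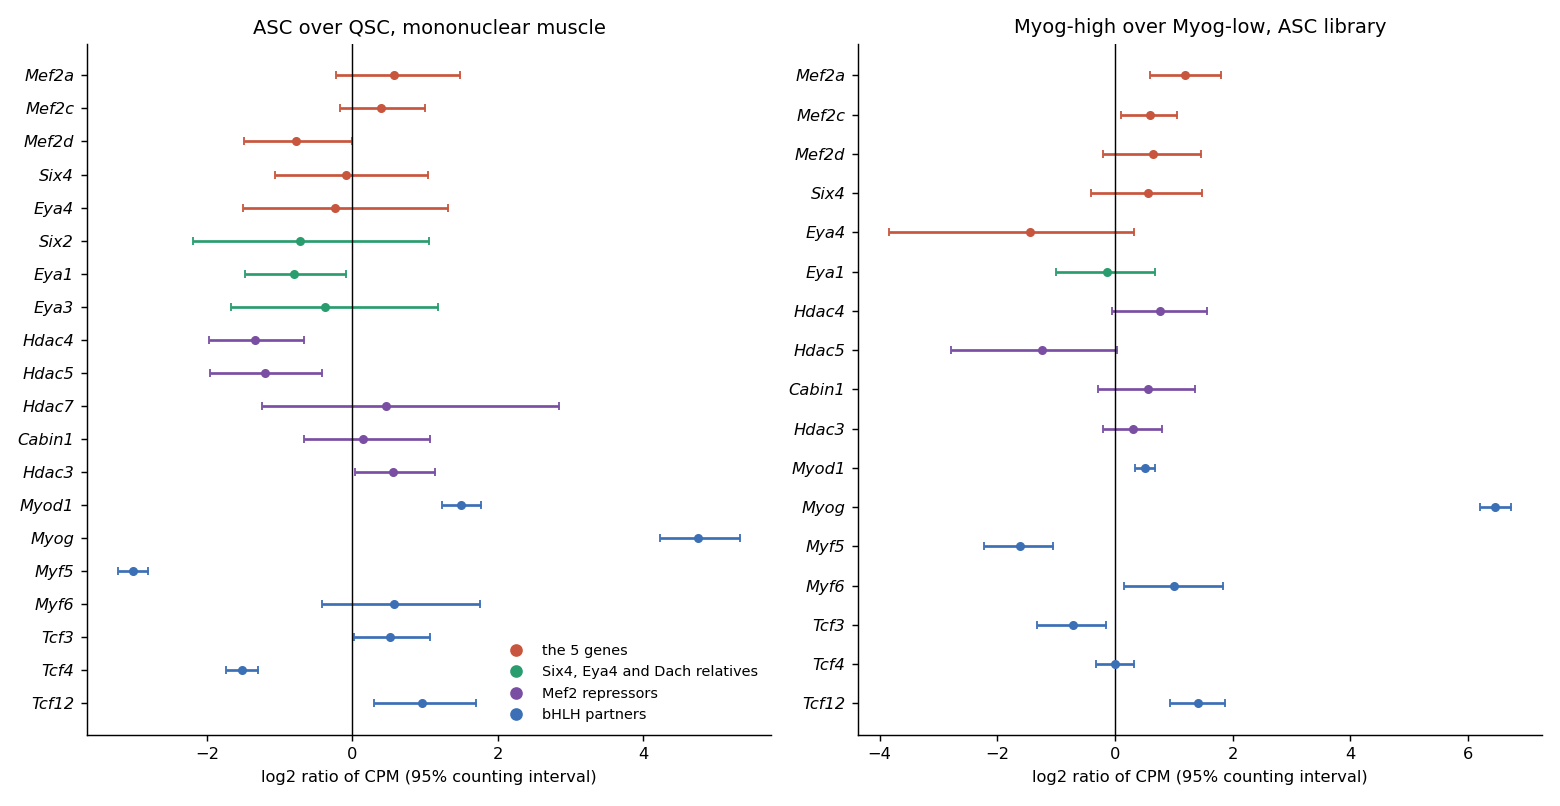
Log2 ratios of CPM with 95% counting intervals for the 5 genes (red), relatives of Six4, Eya4 and Dach (green), Mef2 repressors (purple) and bHLH partners (blue) with at least 20 UMIs in the compared barcodes, all 5 genes being shown. Left, ASC over QSC in mononuclear muscle, where Myog is at 4.75 and Myf5 at -3.01 and the 5 genes lie between -0.77 and 0.57, and right, Myog-high over Myog-low barcodes of the ASC library, where Mef2a is at 1.199 and Tcf12 at 1.41.

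Between Myog-high and Myog-low barcodes, Eya1, the only gene counted of its list, was at -0.13 (-0.9996 to 0.69). In this comparison 6.64% of features were at least 2-fold higher and 10.4% at least 2-fold lower. The bHLH list had 3 of 7 higher and 1 lower. Besides Myog, which defined the class, the higher ones were Tcf12, an E-protein that pairs with myogenic bHLH factors (1.41, 0.94 to 1.87), and Myf6 (1.01, 0.16 to 1.84), and the lower was Myf5 (-1.61, -2.22 to -1.06). Of 9 Mef2 targets counted, 2 were higher with a list median of 0.23 (-0.02 over all features), Mymk (532 against 3.17 CPM, 7.39, 6.34 to 8.71) and Klhl41 (77.5 against 26.7 CPM, 1.53, 1.02 to 2.06), and none was lower. Among the 4 repressors Hdac5 was at -1.23 (-2.78 to 0.04), and none of 12 activators was past 2-fold.

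Between fibre-high and mononuclear muscle barcodes of the ASC library, 15.7% of features were at least 2-fold higher and 44.2% at least 2-fold lower in the former. The Mef2 targets had 14 of 16 genes at least 2-fold higher there and 2 lower, Meg3 (-3.54) and Mymk (-3.15). Their median was 3.686 (-0.72 over all features). Mef2c, at 3.70, lay near that median. The fibre-high class was itself cut on genes of fast fibres, so a list with sarcomere genes such as Myom2 and Xirp1 is not independent of it. The nearness of Mef2c to the median is a description. The MEF3 targets had 7 of 8 higher and Myog lower (-2.67), although 5 of the 7 helped to define the fibre-high class. The repressors had 0 of 5 higher and 3 lower, where 44.2% of all features were lower. Of 3 relatives of Six4 and Eya4 that were counted, Six2 was past 2-fold, lower at -1.504 (-3.52 to 0.09), with an interval that includes 0.

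The genes whose levels over 8 classes of barcodes were most like those of each member were found among 6971 genes with at least 100 UMIs, by Pearson correlation of log2(CPM + 10). For Mef2c they were Nrbf2, Rab40b, Pdlim5, Iscu and Usf1 (r from 0.967 to 0.974), for Mef2a Rftn1, Pet100, Vps33a, Bloc1s1 and Ccdc12 (0.900 to 0.918), and for Mef2d Cat, Cwf19l2, Epc1, Naa60 and Tspyl1 (0.867 to 0.919). The 8 points share libraries and depths, and with so few of them a high r is a description. Six4 and Eya4, with 78 and 70 UMIs in all, had too few UMIs for the comparison.

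Mef2a shares its locus with Lysmd4, which lies on the other strand and had 2 UMIs in QSC and 27 in ASC, and Mef2d with the antisense transcript 1700113A16Rik, which had 2 and 15. How the counting treated strand is not given in the sources used here, so the counts of Mef2a and Mef2d are less certain than those of Mef2c and Six4, which overlap no other annotated gene.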

How the data were processed

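Sorted cells of 1 QSC and 1 ASC library were profiled with droplet-based 3′ v2 chemistry. The authors deposited UMI counts per gene and barcode, whole numbers with no normalization, made with Cell Ranger 6.0.2 per the file headers, whereas the submitters' processing notes give Cell Ranger 7.1.0, with Seurat 4.1.0, R 4.1.2 and build mm10. The filter of at most 10% mitochondrial UMIs is looser than the 1% of the study, which was run as an alternative. The annotation used for counting is not given in the sources used here, and positions are those of GENCODE M21 on GRCm38, 1-based.

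UMIs were summed per library and class of barcodes and divided by the summed total (CPM). CPM carry exact Poisson and log2 ratios exact conditional binomial 95% intervals. A 0 was set to 3 counts where a bound is given. With 1 library per group no test was run. A gene was called where the ratio was at least 2-fold with at least 20 UMIs on both sides together. Doublets were not removed. Promoters of all 6 wanted genes were matched by symbol in RefSeq (10 windows). Genes were named as the 5 members, the 3 highest and 3 lowest ratios of each of 6 lists, and the 5 genes most like each member. Mapk14 and the 4 printed promoters were chosen after their values or matches were seen. The members and lists were chosen with earlier results of these data known. Interval coverage was checked on simulated data. Python 3.11.15, numpy 2.4.6, scipy 1.17.1, and edgeR 4.0.16 in R 4.3.3 (TMM factors only) were used. The alternatives were other mitochondrial, gene-number, class and depth limits, TMM scaling, scaling to the median gene, and mean CPM over barcodes. One gene of these lists is not reported here.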

Additional observations from a re-analysis of the deposited data

Results flagged for a closer look

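Barcodes outside the filter, 250 in QSC and 182 in ASC, also held UMIs of these genes above the floor of 3 counts. Mef2c had 99 UMIs in QSC (538 CPM, 437 to 655) and 79 in ASC (482 CPM, 381 to 600), in barcodes that took 18.4% and 9.19% of their UMIs from the fibre list. Mef2a had 8 UMIs in QSC (43.5 CPM) and 4 in ASC (24.4 CPM), and Mef2d had 8 in ASC (48.8 CPM). Of these barcodes, 246 in QSC and 163 in ASC had under 500 genes.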

How the results depend on the processing

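No paired analysis was possible because each group has 1 library, and for the same reason no replicate could be left out. In mononuclear muscle, every alternative that gave a value left the log2 ratios of ASC over QSC within counting error of those reported, with the same sign throughout for Mef2a, Mef2c and Mef2d, from 0.04 to 0.91, from 0.25 to 0.96 and from -0.90 to -0.46. With at most 1% mitochondrial UMIs the QSC library held 0 UMIs of all 5 genes in mononuclear muscle, so no ratio was given there, nor for Six4 over all barcodes or over fibre-high barcodes alone.

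Over all kept barcodes the ratio of Mef2c, 0.48 as reported, was -0.50 with at most 1% and 0.094 with at most 5% mitochondrial UMIs, 1.28 with at least 1000 and 0.15 with at least 200 genes, 0.074 without fibre-high barcodes, -0.26 in them alone, 0.79 under TMM, 0.72 relative to the median gene and 1.05 as a mean over barcodes, which put Six4 at -1.17. Mef2a was at -0.80 with at most 1% mitochondrial UMIs and -0.57 in fibre-high barcodes alone, and Mef2d at 0.23 in those. TMM raised every ratio by 0.31. For cycling over Myog-low barcodes, Mef2a was at 0.11 with the cycling limit at 0.15% and at 1.17 with it at 0.6%, where 13 cycling barcodes remained, and Mef2c, Mef2d and Eya4 were at 0.50, 0.47 and 1.03 there. Thinning to 2000 in place of 1200 UMIs, which leaves fewer and deeper barcodes, put Mef2a at 3.85% and 15.8% of QSC mononuclear and fibre-high barcodes and at 6.67% and 5.67% of those of ASC (the mononuclear shares no longer lay apart), Mef2c at 63.5% of ASC fibre-high, Mef2d at 5.13% of QSC mononuclear and 4.09% of ASC fibre-high, Six4 at 2.31% of ASC mononuclear and Eya4 at 0% of QSC fibre-high barcodes. The cause of the other moves was not tested.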
